A study of Mus musculus with 12 samples.

Results

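TRBV14, TRBV17, TRBV26 and TRBV30 are 4 of the variable (V) gene segments of the mouse T cell receptor beta chain (TRB). Their chains were taken as the TRB chains whose V segment was called as exactly one of these names in single-cell T cell receptor sequencing of tumour-infiltrating leukocytes. They made up 1892 of 24612 TRB chains, after 7 repeats of a chain on its own barcode were counted once. Among cells with 1 TRB chain and 1 or 2 alpha (TRA) chains, called paired cells here, they were carried by 1568 of 19115 cells and by 939 of 10624 clonotypes. A clonotype was the set of cells of a library with the same TRB chain and a shared TRA chain. TRBV14 was found in 427 paired cells and 380 clonotypes, TRBV17 in 327 cells and 195 clonotypes, TRBV26 in 770 cells and 322 clonotypes, and TRBV30 in 44 cells and 42 clonotypes. By clonotypes they ranked 15th (TRBV14), 16th (TRBV26), 19th (TRBV17) and 22nd (TRBV30) of 22 TRBV segments.

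The mice were C57BL/6 (given also as C57BL/6J), 6 to 8 weeks old. All carried a subcutaneous tumour grown from 300000 cells of MC38-p53KO, a mouse colon cancer line without its own p53, to which a p53 substitution had been added that the labels write in 2 conflicting ways. On day 10, at a tumour size of about 50 to 100 mm³, each mouse received 1 intratumoral dose of 40 µg, LNP-P20-mAb in the treated and LNP-Ctrl in the control group, and live CD45+ cells, the pan-leukocyte gate, were later sorted from the tumours. There were 3 receptor libraries per treatment, numbered 1 to 3, and values by library are always given in that order, LNP-Ctrl first. The model is 1 transplanted line in 1 strain, all T cell types of the tumour are read together, and the labels do not say how many animals stand behind a library. The p-values below therefore measure the spread between these libraries, whether biological or technical.

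A TRB chain is assembled in the thymus by joining 1 V, usually 1 D and 1 J segment to a constant region. The V segment encodes the CDR1 and CDR2 loops, which mostly touch the MHC molecule, and the first residues of CDR3, the loop that mostly touches the peptide. The rest of CDR3 comes from the D and J segments and from bases trimmed or added at the joints. The J segments lie in a TRBJ1 and a TRBJ2 cluster. TRBV26, formerly Vβ3, is known from the AND transgenic receptor, which recognises a cytochrome c peptide on class II MHC. TRBV14, TRBV17 and TRBV30 have the synonyms Tcrb-V13, Tcrb-V9 and Tcrb-V18 in RefSeq. In the RefSeq order of 35 Trbv genes on chromosome 6 (GRCm38.p6), Trbv14 is the 18th, Trbv17 the 21st, Trbv26 the 30th and Trbv30 the 34th.

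The first set of sequences shows how these segments differ before any joining. Each line gives, 5′ to 3′, the V-encoded start of CDR3 as read from the deposited chains, and the capitals mark what follows the opening codons (Cys-Ala-Ser-Ser, or Cys-Ser-Ser in TRBV30).
TRBV14: tgtgccagcagtTTC
TRBV17: tgtgctagcagtAGAGAT
TRBV26: tgtgccagcagtCTGTCG
TRBV30: tgtagttctAGAG
These ends were inferred as the longest start shared by many distinct chains and are not germline entries. The whole end was kept in 24.5% of distinct TRBV14 chains, 7.73% of TRBV17, 8.49% of TRBV26 and 48.8% of TRBV30 chains. Most chains of each segment thus had a shorter V-encoded part, in TRBV30 by a small margin (20 of 41 kept it whole). TRBV30 alone among the 4 lacks the alanine codon that follows the cysteine. The CDR1 and CDR2 loops were each identical in all 519 TRBV14, 439 TRBV17, 881 TRBV26 and 53 TRBV30 chains.
TRBV14 CDR1: tctggacatgatacc
TRBV17 CDR1: atgaatcatgatacc
TRBV26 CDR1: aagggacatccagtt
TRBV30 CDR1: agtcaagttgtttcg
TRBV14 CDR2: tttcgggatgaggctgtt
TRBV17 CDR2: tactatgataagattttg
TRBV26 CDR2: tttcagaatcaagaagtt
TRBV30 CDR2: gcaaatgaaggctctgaagcc
Translated by the depositors, the CDR1 loops read SGHDT, MNHDT, KGHPV and SQVVS in the order of the lines, and the CDR2 loops FRDEAV, YYDKIL, FQNQEV and ANEGSEA. Over the V region as a whole, up to the start of CDR3, pairs of the 4 were 49.4% to 55.6% identical in aligned bases, gaps counted as differences.

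Depth and relations between libraries bear on all that follows. Every chain was TRA or TRB, with 0 of other receptor loci. The libraries held 5050 to 9982 chains on 2446 to 4869 barcodes with 85835 to 145847 UMIs, and 2016 to 3923 paired cells. LNP-P20-mAb 1 and LNP-P20-mAb 2 shared 114 clonotypes, which held 84.6% and 84.2% of their cells, whereas every other pair of libraries shared at most 1. Of the 114, 6 used these segments (3 with TRBV26 and 1 with each of the others), and they held 95.7% and 94.1% of the TRBV26 cells of these libraries and 83.8% and 65.5% of the TRBV17 cells. The usage tests were therefore also run with both counted as 1 sample. Pairs of libraries shared 6 to 22 barcodes, and none carried the same TRB chain of these segments in both.

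The first comparison asked whether the 2 treatments used the segments at different rates, over clonotypes (each receptor counted once) and over cells (each receptor weighted by its clone). TRBV14 made up 4.61%, 3.33% and 3.28% of clonotypes in the LNP-Ctrl libraries and 4.09%, 2.75% and 3.55% in the LNP-P20-mAb libraries. The ranges overlapped (3.74% ± 0.755 against 3.46% ± 0.675, SD, n = 3 each). TRBV17 made up 2.56%, 0.712% and 1.87% against 1.07%, 2.75% and 3.40%, with one low library in each treatment. TRBV26 made up 4.06%, 2.46% and 3.22% against 1.96%, 2.5% and 3.1%. TRBV30, the rarest TRBV segment, made up 0.5%, 0.356% and 0.263% against 0.712%, 0.5% and 0.517%, so that only LNP-Ctrl 1 reached the level of the lowest LNP-P20-mAb library.

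Over clonotypes, 7 of 151 V and J segments with at least 30 clonotypes differed between treatments (4.64% called; edgeR's quasi-likelihood test, Benjamini-Hochberg adjusted over all 151), 3 higher and 4 lower in LNP-P20-mAb, and none of the 4 was among them. Of the 18 other TRBV segments, 2 were higher and 3 lower. The ± of each log2 difference, here and below, is an approximate standard error. It is the absolute difference divided by the square root of the test's F statistic, and need not match the p-value beside it. The log2 differences of LNP-P20-mAb to LNP-Ctrl were -0.06 ± 0.21 for TRBV14 (adjusted p = 0.968) and 0.67 ± 0.38 for TRBV17 (adjusted p = 0.341). They were -0.26 ± 0.24 for TRBV26 (adjusted p = 0.642) and 0.67 ± 0.47 for TRBV30 (adjusted p = 0.463). At this spread a difference was not detectable for any of the 4, and the TRBV17 value moved between 0.13 and 1.00 when single libraries were left out.

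By cells, TRBV14 was lower and TRBV26 higher in the 2 LNP-P20-mAb libraries that share clones than in any control library, and neither difference between treatments passed the test given below. TRBV14 was carried by 2.73%, 2.85% and 3.1% of paired cells in the LNP-Ctrl libraries and by 0.705%, 0.546% and 2.60% in the LNP-P20-mAb libraries. The means were 2.90% ± 0.190 and 1.28% ± 1.14 (SD, n = 3 each), and LNP-P20-mAb 3 lay close to the controls. TRBV26 was carried by 3.27%, 4.21% and 3.02% of cells against 6.37%, 5.90% and 1.97%. The highest and the lowest of these 6 values were thus both in LNP-P20-mAb, with 95% exact binomial intervals of 5.56% to 7.27% and 1.49% to 2.55%, which cover counting error only. TRBV17 was carried by 1.38%, 1.99% and 2.33% against 1.13%, 1.44% and 1.76%. TRBV30 was carried by 0.270%, 0.280% and 0.241% against 0.123%, 0.0992% and 0.317%, from 2 to 11 cells a library.

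**Figure D1:**
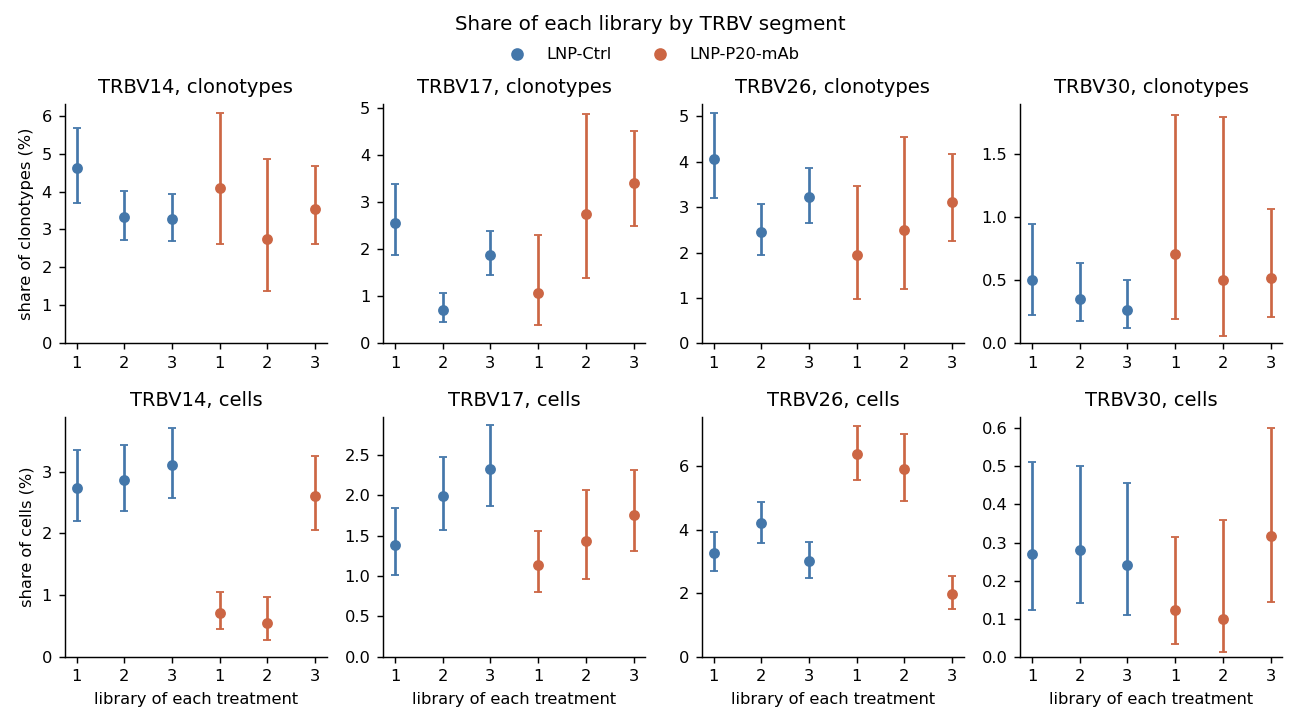
Share of each library's clonotypes (top) and paired cells (bottom) that carried each segment, in percent, with each panel on its own scale. Each point is 1 library, blue for LNP-Ctrl and orange for LNP-P20-mAb, and bars are 95% exact binomial intervals of that library. In LNP-P20-mAb 1, 2 and 3, the TRBV14 share of cells is 0.705%, 0.546% and 2.60%. The TRBV26 share of cells is 6.37% and 5.90% in LNP-P20-mAb 1 and 2 and 1.97% in LNP-P20-mAb 3.

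Over cells, 0 of 151 segments passed in the same test (0% called, 41 at an unadjusted p under 0.05, lowest adjusted p = 0.0599), while DESeq2 called 35. The median over all segments was a log2 difference of -0.76, against which the members' values have to be read. TRBV14 was at -1.16 ± 0.62 (adjusted p = 0.222), TRBV26 at 0.44 ± 0.50 (adjusted p = 0.534), TRBV17 at -0.40 ± 0.53 (adjusted p = 0.590) and TRBV30 at -0.52 ± 0.75 (adjusted p = 0.602). With edgeR's TMM scaling the median moved to -0.16, and TRBV17 and TRBV30 then changed sign (0.23 and 0.023), whereas TRBV14 and TRBV26 kept theirs and moved to -0.70 and 1.20. Without LNP-P20-mAb 3, the remaining 2 LNP-P20-mAb libraries being those that share their clones, TRBV14 was at -2.19 (adjusted p = 0.00313) and TRBV26 at 0.81 (adjusted p = 0.0226), and 92 of 151 segments passed. With LNP-P20-mAb 1 and 2 counted as 1 sample, TRBV14 was at -0.85 and TRBV26 at 0.23.

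For each of the 4, the TRBV segments whose log2 share of clonotypes varied most like its own across the 6 libraries are given by Pearson's r, as a description. TRBV26 varied most like TRBV19 (r = 0.897) and TRBV15 (r = 0.707), and TRBV30 most like TRBV29 (r = 0.880) and TRBV5 (r = 0.731). TRBV14 varied most like the merged TRBV12-2+TRBV13-2 call (r = 0.823) and TRBV29 (r = 0.662), and TRBV17 most like TRBV12-1 (r = 0.624) and TRBV19 (r = 0.468). Shares of 1 library sum to a fixed total, so these values share their denominators. They are also the highest of many over only 6 libraries, with LNP-P20-mAb 1 and 2 sharing clones. High values can therefore arise by selection alone. The TRBV30 shares rest on 2 to 11 clonotypes a library.

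The second comparison set the J and TRA segments joined or paired with each member against those of all other TRBV segments, within each library and over clonotypes. TRBJ2-7 was the most used J segment in all 4, with 83 of 380 TRBV14 clonotypes (21.8%), 39 of 195 TRBV17 (20%), 60 of 322 TRBV26 (18.6%) and 15 of 42 TRBV30 (35.7%), beside 19.9% of all others. The most used TRAV subgroup was TRAV6 with TRBV14 (16.1%), TRAV12 with TRBV17 (15.4%) and TRAV7 with TRBV26 (19.9%), and TRAV7 again with TRBV30 (8 of 42 clonotypes). Of 101 partner segments with enough clonotypes to test (42 for TRBV14, 23 for TRBV17, 36 for TRBV26 and none for TRBV30), 3 passed (2.97% called, 14 at an unadjusted p under 0.05). These were TRBJ2-1 with TRBV14, and TRAV7 and TRAJ6 with TRBV26.

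TRBJ2-1 was joined to TRBV14 less often than to other V segments. It stood in 4 of 83, 9 of 103 and 5 of 112 TRBV14 clonotypes in the LNP-Ctrl libraries and in 1 of 23, 1 of 11 and 5 of 48 in the LNP-P20-mAb libraries. As shares these were 4.82%, 8.74%, 4.46%, 4.35%, 9.09% and 10.4%, beside 13.5%, 11.6%, 11.3%, 17.4%, 13.1% and 14.5% of the other clonotypes of the same libraries. TRBV14 was lower in 6 of 6 libraries (6.98% ± 2.73 against 13.6% ± 2.24, SD, n = 6; log2 difference -0.95 ± 0.24, edgeR adjusted p = 0.0265). The call was lost without LNP-Ctrl 1 (adjusted p = 0.0921) and without LNP-Ctrl 3 (adjusted p = 0.381).

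TRAV7, a multi-gene alpha subgroup, was paired with TRBV26 more often than with other TRBV segments. It stood in 15.1%, 19.7% and 23.6% of TRBV26 clonotypes in the LNP-Ctrl libraries and in 18.2%, 30% and 16.7% in the LNP-P20-mAb libraries. The last 3 shares are 2 of 11, 3 of 10 and 7 of 42 clonotypes, and LNP-P20-mAb 1 and 2 have 1 of these receptors in common. The other clonotypes were at 11.3%, 12.7%, 12.3%, 13.2%, 13.8% and 10.8%, so that TRBV26 was higher in 6 of 6 libraries (20.5% ± 5.48 against 12.4% ± 1.15, SD, n = 6; log2 difference 0.72 ± 0.20, edgeR adjusted p = 0.0265). In all, 64 of 322 TRBV26 clonotypes carried TRAV7. The single gene TRAV7D-2 was in 28 of 322 TRBV26 clonotypes (8.70%) and in 5 of 42 TRBV30 clonotypes (11.9%), a higher share. It was in 11 of 380 TRBV14 (2.89%) and 1 of 195 TRBV17 clonotypes (0.513%). Among clonotypes of the remaining TRBV segments it was in 308 of 9685 (3.18%). The TRAV7 subgroup holds near-identical duplicated genes, so calls of single genes are less certain than the subgroup. The TRAV7 call was lost with TMM scaling (adjusted p = 0.285), with every TRA chain of a cell counted (adjusted p = 0.0801), without LNP-Ctrl 2 (adjusted p = 0.0815) and without LNP-Ctrl 3 (adjusted p = 0.492).

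TRAJ6 was also paired with TRBV26 more often, in 14 of 322 clonotypes (2.8% ± 2.51 against 1.24% ± 0.547, SD, n = 6; log2 difference 1.49 ± 0.33, edgeR adjusted p = 0.0408). It was higher in 4 of 6 libraries, with 3, 3 and 7 clonotypes in the LNP-Ctrl libraries and 0, 0 and 1 in the LNP-P20-mAb libraries. Leaving out LNP-Ctrl 1, LNP-Ctrl 2 or LNP-P20-mAb 3 ended this call (adjusted p = 0.0921, 0.0815 and 0.0549), and without LNP-Ctrl 3 it had too few clonotypes to be tested. It was also lost with every TRA chain counted (adjusted p = 0.0801) and with barcodes of several TRB chains kept (adjusted p = 0.0575). TRAV7 and TRAJ6 overlapped in part. Of the 14 TRBV26 clonotypes with TRAJ6, 9 carried TRAV7 (64.3%), beside 24 of 154 TRAJ6 clonotypes of other segments (15.6%). The same 9 were a small part of the 64 TRBV26 clonotypes with TRAV7.

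**Figure D2:**
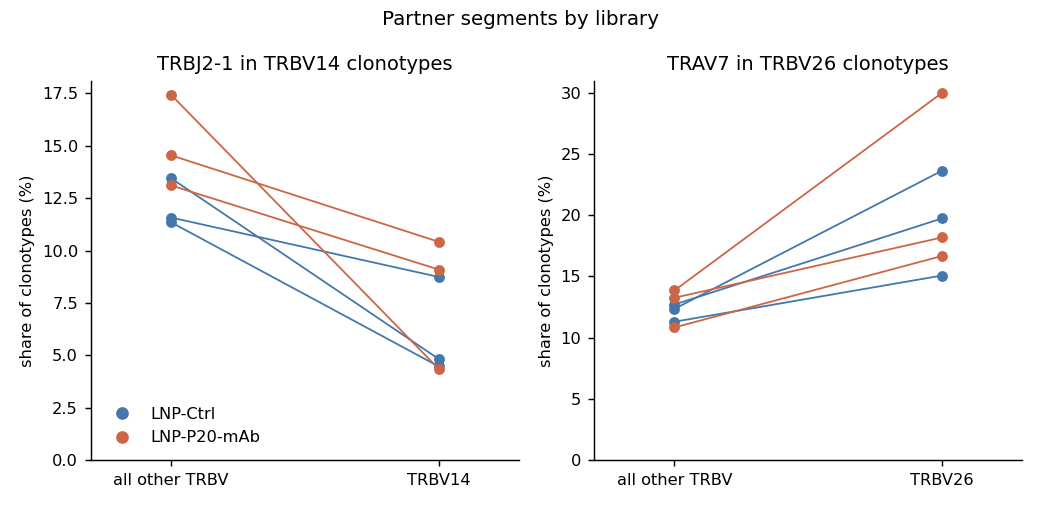
Share of clonotypes (percent, vertical axes) with TRBJ2-1 among TRBV14 clonotypes (left) and with TRAV7 among TRBV26 clonotypes (right), beside all other TRBV segments of the same library. Each line joins the values of 1 library, blue for LNP-Ctrl and orange for LNP-P20-mAb, and runs down on the left and up on the right in 6 of 6 libraries.

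The third comparison concerned the CDR3 loop. The 7 features of each of the 4 members were compared with the other TRBV segments within libraries by two-sided exact sign-flip permutation tests (64 flips, smallest possible p = 0.03125). Of 28 tests 12 gave that smallest p, but none passed after adjustment over the 28 (lowest adjusted p = 0.0729). These tests, and the counts of 6 libraries below, take LNP-P20-mAb 1 and 2, which share clones, as separate libraries. With both counted as 1 sample the smallest possible p is 0.0625, so none of the 28 could pass. CDR3 loops were shortest with TRBV30, at 13.2 ± 0.292 residues against 14 (SD, n = 6; lower in 6 of 6 libraries, exact p = 0.03125). Loops of 13 residues made up 20 of 42 TRBV30 clonotypes (47.6%) and 19.2% of the others. TRBV14 loops had 13.7 ± 0.185 residues and TRBV26 loops 13.8 ± 0.103 (n = 6, each lower in 6 of 6 libraries), and TRBV17 loops 14.2 ± 0.230 (n = 6, exact p = 0.219). The TRBJ2 cluster was used by 58.2% ± 7.39 of TRBV26 clonotypes against 69.4% (SD, n = 6, lower in 6 of 6 libraries).

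**Figure D3:**
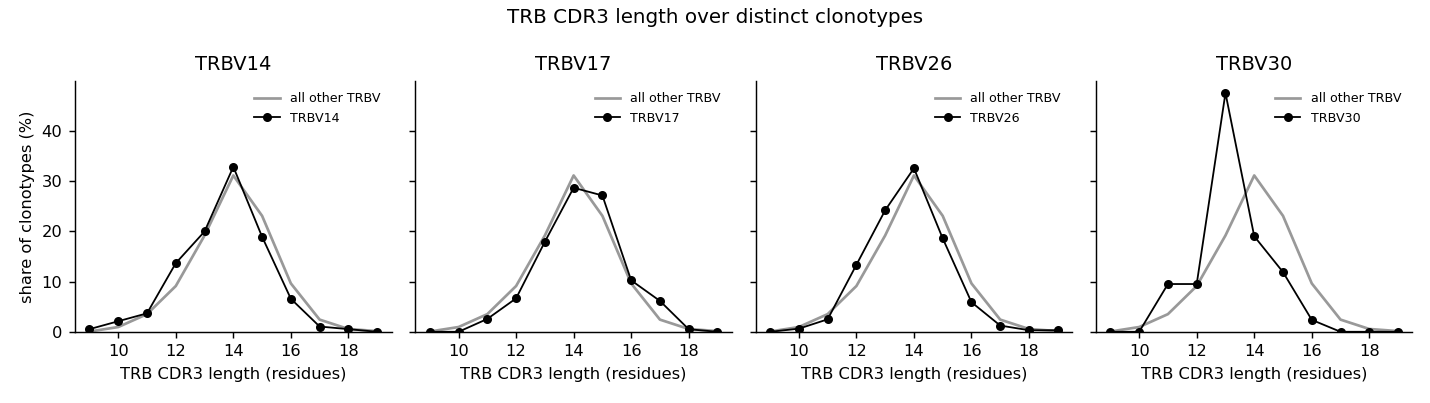
Share of distinct clonotypes (percent, vertical axis) by length of the TRB CDR3 loop in residues (horizontal axis), over all libraries, for each of the 4 segments (black) and for all other TRBV segments (grey). TRBV30 has 47.6% of its 42 clonotypes at 13 residues, against 19.2% of the others.

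The middle of the loop, taken as what remains after the first 4 and last 5 residues, differed most in TRBV17. Its mean hydropathy (Kyte-Doolittle scale, lower is more polar) was -1.48 against -0.90 (lower in 6 of 6 libraries) and its net charge 0.73 against -0.22 (higher in 6 of 6). TRBV14 was at 0.17 and TRBV26 at 0.18 in net charge against -0.21, each higher in 6 of 6 libraries. Part of this middle is still encoded by the V end shown above: the fifth residue was arginine in the 61.0% of TRBV17 chains that open with CASSR, leucine in the 57.5% of TRBV26 chains that open with CASSL and phenylalanine in the 32.4% of TRBV14 chains that open with CASSF. With the first 6 residues left out instead, chosen after seeing the data, the TRBV17 difference in hydropathy was 0.11 (exact p = 0.406) and in charge 0.14 (exact p = 0.0625). For TRBV14 they were -0.04 (exact p = 0.469) and 0.04 (exact p = 0.5). TRBV26 then had a charge higher by 0.09 in 6 of 6 libraries (exact p = 0.03125), and its hydropathy difference went from 0.15 (exact p = 0.219) to -0.38, lower in 6 of 6 libraries (exact p = 0.03125).

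The number of UMIs per TRB chain, a measure of captured transcripts, ran in 1 direction in all libraries for 3 of the 4, without passing the adjustment over the 28 tests. Over TRBV17 cells the medians were 35.5, 46.5 and 27 UMIs in the LNP-Ctrl libraries and 47, 41 and 35 in the LNP-P20-mAb libraries. Their mean was 38.7 ± 7.69 against 17.7 for the other segments (SD, n = 6; exact p = 0.03125, adjusted p = 0.0729), and the ratio was 2.23 ± 0.591, from 1.69 to 3.32. By this mean TRBV17 ranked 1st of 22 TRBV segments and TRBV15 2nd, at 35.6, but by library TRBV15 was first in 4 and TRBV17 in 3, with 1 tie. TRBV26, with 18, 13, 12, 11, 13 and 15.5, and TRBV30, with 20, 10, 11, 9, 13.5 and 10, lay below the others in every library (ratios 0.769 and 0.679, ranks 19 and 20). TRBV14 was close to the others at 19.3. The alpha chains of the same cells did not follow this order, with 6.58 ± 1.8 UMIs for TRBV17 and 7.67 ± 1.51 for the others (SD, n = 6). Reads per TRB UMI were also close, at 183 and 179. All these medians are over cells, so large clones weigh on them. In LNP-Ctrl 2, LNP-P20-mAb 1 and LNP-P20-mAb 2, 1 clonotype held 69.2%, 83.8% and 65.5% of the TRBV17 cells. Among single-cell clonotypes alone the TRBV17 difference was 14.8 UMIs (exact p = 0.03125), the TRBV26 difference -2.33 (exact p = 0.125) and the TRBV30 difference -3.5 (exact p = 0.0625).

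**Figure D4:**
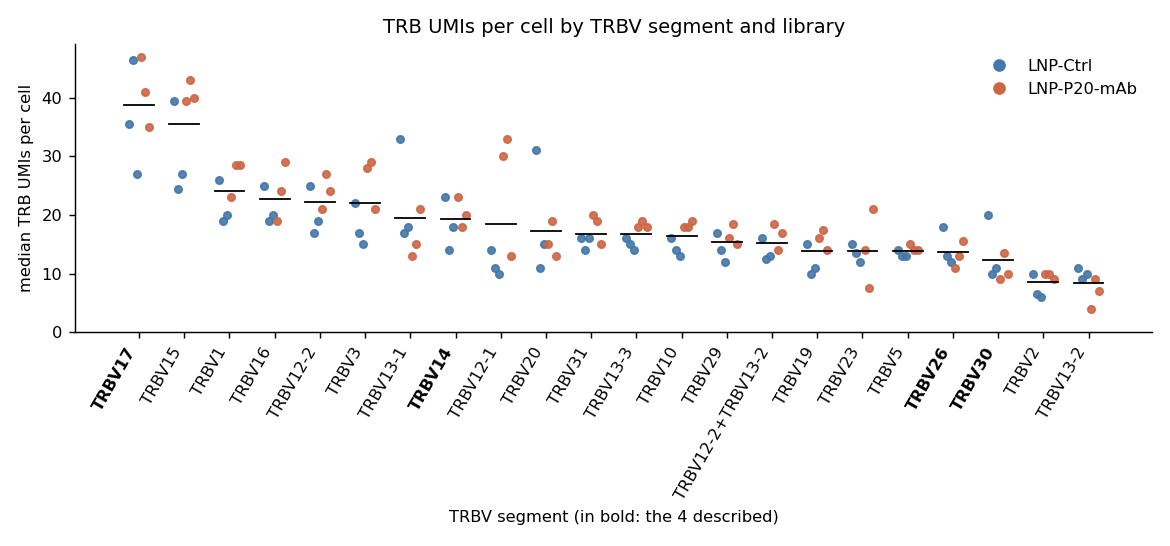
Median TRB UMIs per cell (vertical axis) for 22 TRBV segments in order of their mean. Each point is 1 library, blue for LNP-Ctrl and orange for LNP-P20-mAb, and the line is the mean over 6 libraries. TRBV17 is first by its mean, with 27 to 47, and TRBV26 and TRBV30 rank 19 and 20.

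The last comparison concerned clone sizes. Single-cell clonotypes made up 95.3% of TRBV14, 94.4% of TRBV17, 91.3% of TRBV26 and 97.6% of TRBV30 clonotypes, beside 91.9% of the others. Clones of at least 20 cells held 51.9% of TRBV26 cells (4 clonotypes), 26% of TRBV17 cells (2 clonotypes) and 0 of the 427 TRBV14 and 44 TRBV30 cells, against 32.1% of the cells of other segments. Of the 4 TRBV26 clonotypes, 2 were the same receptor in LNP-P20-mAb 1 and 2, and the TRBV17 share was 12.4% without LNP-Ctrl 2. With libraries thinned to 2016 cells, the share of TRBV26 cells in clonotypes of 2 or more was 35.0%, 56.9% and 2.53% in the LNP-Ctrl libraries and 95.8%, 94.1% and 31.8% in the LNP-P20-mAb libraries. The corresponding TRBV14 shares were 11.0%, 9.34%, 3.94%, 0%, 0% and 41.0%, where 0 of 23 and 0 of 11 cells allow up to 13.0% and 27.3%. TRBV17 was at 0%, 73.2%, 29.2%, 86.9%, 65.5% and 10.6%, and the other segments at 51.1%, 20.4%, 9.38%, 85.1%, 85.1% and 58.7%. High and low values of TRBV17 and TRBV26 thus stood in both treatments. Between treatments, 12 two-sided exact permutation tests took the expanded share, the share of the largest clonotype and the cells per clonotype of each member. Only the expanded share was thinned, so the other measures may also vary with the number of cells in a library. None of the 12 tests passed (lowest adjusted p = 0.72), and with 3 libraries against 3 their p cannot go below 0.1.

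Clonotypes of 3 or more cells were also set against single-cell clonotypes in edgeR, where 3 of 151 segments passed (1.99% called, 22 at an unadjusted p under 0.05). TRBV14 had 9 expanded and 362 single-cell clonotypes and a log2 difference in share of -1.01 ± 0.44 (adjusted p = 0.207). TRBV17 (8 against 184) was at -0.39 ± 0.54 (adjusted p = 0.802), TRBV26 (14 against 294) at 0.09 ± 0.41 (adjusted p = 0.957) and TRBV30 (1 against 41) at -1.29 ± 1.29 (adjusted p = 0.691). The only expanded TRBV30 clonotype was in LNP-P20-mAb 3, and the fitted value without that library, -5.37 (adjusted p = 0.321), rests on 0 expanded clonotypes and is no bound. The interaction with treatment passed for 0 of 151 segments (0% called, 4 at an unadjusted p under 0.05, lowest adjusted p = 0.898).

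**Figure D5:**
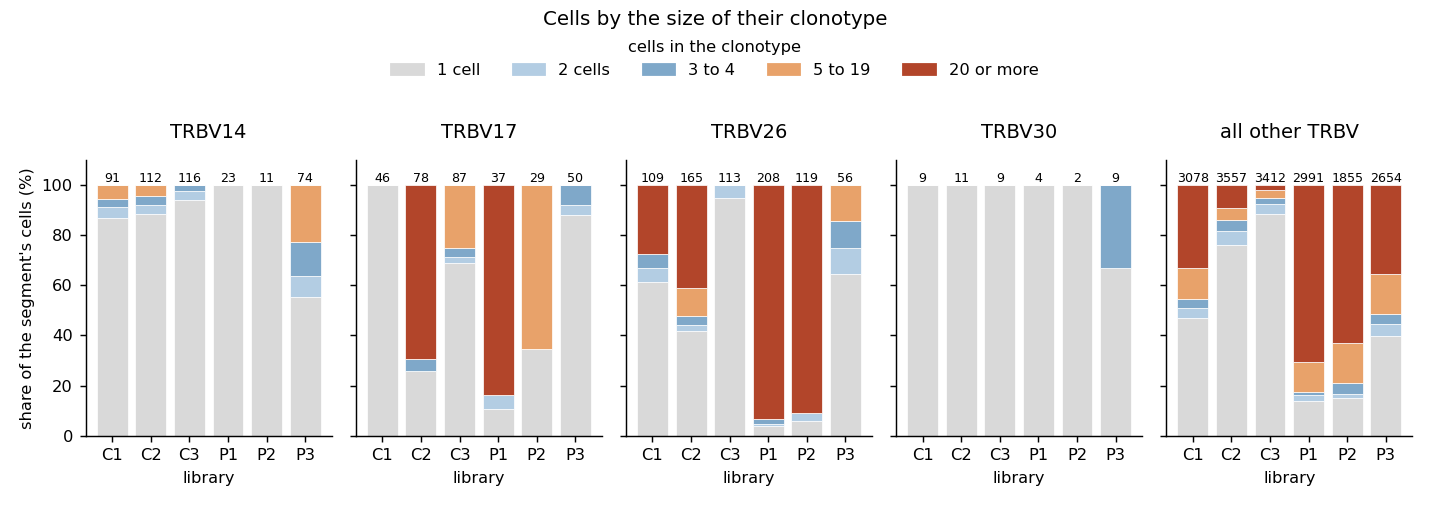
Share of the cells of each segment (percent, vertical axis) by the size of the clonotype they belong to, in LNP-Ctrl 1 to 3 (C1 to C3) and LNP-P20-mAb 1 to 3 (P1 to P3), with all paired cells and no thinning. The number above a bar is the number of cells. Clonotypes of 20 or more cells appear in TRBV17 and TRBV26 and not in TRBV14 or TRBV30.

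A few clonotypes held a large part of the TRBV26 and TRBV17 cells, and they are shown with the largest of TRBV14. Their TRB CDR3 bases follow, with the segment, the library and the number of cells, and the capitals mark the bases between those matched to the V and the J end.
TRBV26 with TRBJ2-2, LNP-P20-mAb 1 and 2, 194 and 108 cells: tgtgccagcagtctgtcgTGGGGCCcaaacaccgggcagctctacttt
TRBV26 with TRBJ2-4, LNP-Ctrl 2, 68 cells: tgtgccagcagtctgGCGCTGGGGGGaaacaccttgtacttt
TRBV26 with TRBJ2-4, LNP-Ctrl 1, 30 cells: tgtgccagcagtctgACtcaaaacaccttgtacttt
TRBV17 with TRBJ2-7, LNP-Ctrl 2, 54 cells: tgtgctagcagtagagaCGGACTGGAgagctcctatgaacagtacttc
TRBV17 with TRBJ2-3, LNP-P20-mAb 1 and 2, 31 and 19 cells: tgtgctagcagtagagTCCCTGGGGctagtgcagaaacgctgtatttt
TRBV14 with TRBJ2-7, LNP-P20-mAb 3, 17 cells: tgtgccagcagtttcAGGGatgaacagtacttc
The first TRBV26 clonotype, paired with TRAV7D-2 and TRAJ31 (alpha CDR3 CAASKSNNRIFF), made up 5.95% and 5.36% of its libraries' cells and 93.3% and 90.8% of their TRBV26 cells. Its 302 cells were among the 371 of 770 TRBV26 cells that carried TRAV7. The next 2 TRBV26 clonotypes translate to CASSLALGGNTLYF, paired with TRAV6N-6 and TRAJ5, and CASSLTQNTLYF, paired with TRAV9-2 and TRAJ49, and made up 41.2% and 27.5% of their libraries' TRBV26 cells. The 54-cell TRBV17 clonotype, paired with TRAV6N-6 and TRAJ56, made up 69.2% of the TRBV17 cells of LNP-Ctrl 2, and the other TRBV17 clonotype shown was paired with TRAV16N and TRAJ37. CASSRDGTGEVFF with TRAV6D-6 and TRAJ12 was next in TRBV17, with 15 cells in LNP-Ctrl 3. The largest TRBV14 clonotype, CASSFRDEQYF with TRAV13N-3 and TRAJ31, held 23.0% of the TRBV14 cells of LNP-P20-mAb 3. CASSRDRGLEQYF in LNP-Ctrl 2 and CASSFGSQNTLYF in LNP-Ctrl 1 followed with 5 cells each. The largest TRBV30 clonotype, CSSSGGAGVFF with TRAV7D-2 and TRAJ40, had 3 cells in LNP-P20-mAb 3, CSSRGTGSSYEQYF had 1 cell in each of LNP-P20-mAb 1 and 2, and every other TRBV30 clonotype was a single cell. In TRBV26, the 3 largest clonotypes thus differed in their J or in their alpha partner, and all 3 kept the V-encoded leucine codon.

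With LNP-P20-mAb 1 and 2 counted apart, none of the members' receptors, by TRBV, TRBJ and CDR3 residues, was found in 3 or more libraries. Among other segments, 22 of 9335 receptors were. The members have far fewer receptors, so this count does not set them apart. Receptors found in at least 2 samples were also counted, with LNP-P20-mAb 1 and 2 as 1 sample. They were 3 of 376 TRBV14 receptors (0.798%), 1 of 193 TRBV17 (0.518%), 1 of 317 TRBV26 (0.315%) and 0 of 41 TRBV30. Among the other segments they were 132 of 9335 (1.41%). Invariant alpha chains, which mark NKT and MAIT cells, were too few to compare. The invariant NKT alpha chain was found in 1 of 327 TRBV17 cells, beside 55 of 17547 cells of other segments (0.313%). It was found in 0 of 427 TRBV14, 0 of 770 TRBV26 and 0 of 44 TRBV30 cells, which allow up to 0.703%, 0.390% and 6.82%, all above that share. The MAIT alpha chain was found in 1 TRBV17 cell and in 0 cells of the other 3, beside 16 of the 17547.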

How the data were processed

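Receptor transcripts were enriched from 10x Genomics 5′ libraries (version 2 chemistry) of about 10000 sorted CD45+ cells each, per the labels' protocols. Cell Ranger 8.0.1 is named in the submitters' processing notes beside several mouse builds, whose part is not stated, and no positions are printed. The deposited files give each chain's segments and CDR3 and raw counts of reads and UMIs, as the authors deposited them. Segment, cell and chain calls are the authors', and a chain or cell dropped before deposit leaves no trace. Samples were grouped by their titles. Gene expression of the same study (6 samples) was not used here.

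Paired cells had exactly 1 TRB chain and 1 or 2 TRA chains, and the remaining barcodes, candidate doublets among them, entered no main result. A clonotype joined cells of a library with identical TRB V, J and CDR3 bases that shared a TRA chain, and its leading TRA chain was that in most cells. Clonotypes and cells per segment were counted and compared with edgeR 4.0.16 (quasi-likelihood, library totals as offsets, threshold 0.05, Benjamini-Hochberg over segments with at least 30 clonotypes, or partners with at least 10). DESeq2 1.42.0 was an alternative. Single values were tested by exact sign-flip tests over 64 flips or exact permutation tests over 20 assignments of libraries. Expanded shares are means of 200 draws of 2016 cells. Intervals are 95% Clopper-Pearson, and limits for 0 counts are the share that 3 would make. Both cover counting error only. Calculations used Python 3.11.15, numpy 2.4.6, pandas 2.3.3, scipy 1.17.1 and R 4.3.3, and the scripts were tested on simulated data.

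The segments and lists were chosen with earlier results of these data known. Named partner segments are those past the threshold. Named clonotypes are the 3 with most cells of each segment, and named similar segments are the 2 of highest correlation.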

Additional observations from a re-analysis of the deposited data

How the results depend on the processing

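Alternatives were edgeR's TMM scaling, DESeq2, other minima of clonotypes, barcodes with several TRB chains kept, the deposited clonotype numbers, distinct TRB chains only, cells counted in place of clonotypes, single-cell clonotypes only, expansion from 2 cells, no thinning, LNP-P20-mAb 1 and 2 pooled, every TRA chain counted and the first 6 residues left out (both chosen after seeing the data), a replicate block, and leaving out each library. Of the values of single segments or features under these, 305 kept direction and side of the threshold, 16 changed sign, 11 lost the call, 2 gained one and 1 moved to 0. With LNP-P20-mAb 1 and 2 pooled or 1 library left out, the features' exact tests (smallest p = 0.0625) could not pass. The same held for every expanded share (exact permutation p not below 0.1). Among the 305, such values show direction only. Segments called over clonotypes fell from 7 to 2 with DESeq2 and to 2 with several TRB chains kept, and ranged from 2 to 10 without single libraries. Over cells the count of 0 became 1 with TMM, 35 with DESeq2 and 5 with several TRB chains kept, and ranged from 0 to 92 without single libraries. Calls among expanded clonotypes ranged from 0 to 3 (3 with all libraries). The 3 partner calls became 5 with TMM and 1 with every TRA chain counted, and ranged from 0 to 4 without single libraries. The cause of these shifts was not tested.

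Signs changed in the following values, in which no adjusted p had passed. Over clonotypes, TRBV14 was at 0.013 with LNP-P20-mAb 1 and 2 pooled and between -0.15 and 0.10 without single libraries. Over cells, TRBV17 was at 0.23 with TMM and 0.31 with DESeq2, and TRBV30 at 0.023 and 0.13. Among expanded clonotypes, TRBV17 ranged from -0.99 to 0.092 and TRBV26 from -0.32 to 0.27 without single libraries. With the first 6 residues left out, the hydropathy difference was -0.039 for TRBV14, 0.11 for TRBV17 and -0.38 for TRBV26. With each cell counted in place of each clonotype, the TRBV26 differences were 0.405 residues in CDR3 length and 5.23 percentage points in TRBJ2 share. The TRBV14 difference in expanded share ranged from -8.08 to 13.0 points without single libraries.

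Replicate numbers are shared between treatments with nothing in the labels that ties them. Same-numbered libraries' deviations correlated at -0.06, -0.15 and -0.08 over clonotypes and at 0.10, 0.01 and 0.09 over cells. With the number as a replicate block, 6 segments were called over clonotypes (5 of the 7 kept) and 0 over cells, with 0 of the 4 members among them.

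Depth limits TRBV30, with 2 to 11 clonotypes a library, and in LNP-P20-mAb 1 and 2 also TRBV17 (6 and 11 clonotypes), TRBV26 (11 and 10) and TRBV14 (23 and 11).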

Other observations

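Beyond identical receptors, sets of alike paired receptors were looked for across libraries, by a rule chosen after seeing the data. Receptors of different libraries were linked where they had the same TRBV, TRBJ, TRAV subgroup, TRAJ and CDR3 length and differed by at most 1 TRB residue. Sets join all linked receptors, so that members of a set may differ by more. They were found in 4 of 380 TRBV14 clonotypes (1.05%, 1 set), 6 of 322 TRBV26 clonotypes (1.86%, 2 sets), 0 of 195 TRBV17 and 0 of 42 TRBV30 clonotypes. The other segments had 203 of 9685 (2.10%, 70 sets). All 3 sets of the members spanned 3 libraries, and 22 of the 70 others spanned at least 3. Their TRB CDR3 bases follow, with capitals at every position where the receptors of a set are not all the same.
TRBV14, TRBJ1-4, TRAV9-1, TRAJ31, LNP-Ctrl 2: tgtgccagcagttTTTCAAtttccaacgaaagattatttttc
LNP-Ctrl 3: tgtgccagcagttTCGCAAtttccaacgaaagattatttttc
LNP-Ctrl 3, second receptor: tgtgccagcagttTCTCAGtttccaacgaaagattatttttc
LNP-P20-mAb 2: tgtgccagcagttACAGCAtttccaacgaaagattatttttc
TRBV26, TRBJ1-1, TRAV7D-2, TRAJ22, LNP-Ctrl 2: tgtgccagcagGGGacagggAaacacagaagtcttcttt
LNP-Ctrl 3: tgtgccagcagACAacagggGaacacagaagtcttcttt
LNP-P20-mAb 3: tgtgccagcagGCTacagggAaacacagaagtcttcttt
TRBV26, TRBJ2-5, TRAV7 subgroup, TRAJ6, LNP-Ctrl 1: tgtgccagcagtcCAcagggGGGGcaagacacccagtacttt
LNP-Ctrl 2: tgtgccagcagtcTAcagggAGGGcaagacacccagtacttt
LNP-Ctrl 3: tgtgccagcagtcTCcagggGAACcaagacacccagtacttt
In the TRBV14 set the 4 loops read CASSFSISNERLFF, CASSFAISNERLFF, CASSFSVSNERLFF and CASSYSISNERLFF. The 3 alpha loops of the LNP-Ctrl receptors are identical in residues (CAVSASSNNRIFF), although not in all bases, and that of LNP-P20-mAb 2 is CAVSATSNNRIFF. In the second set the loops read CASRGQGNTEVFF, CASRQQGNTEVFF and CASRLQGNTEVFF, 1 cell each. In the third they read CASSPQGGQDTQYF, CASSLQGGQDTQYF (6 cells) and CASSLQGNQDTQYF, and these 3 belong to the 9 TRBV26 clonotypes that joined TRAV7 with TRAJ6.

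Barcodes with 2 TRB chains, left out above, held 16.4% of TRBV17 chains, 13.2% of TRBV30, 8.29% of TRBV14 and 5.56% of TRBV26 chains, beside 15.0% of all TRB chains. In 19 of 53 such TRBV17 barcodes both chains used TRBV17. In LNP-Ctrl 2 there were 9 with the chain of the 54-cell clonotype at a median of 3 UMIs (1 to 31), all beside 1 and the same first chain. In LNP-P20-mAb 1 there were 7 with the chain of the 31-cell clonotype at a median of 13 UMIs (9 to 28), each beside a different first chain. For TRBV26 there were 6 barcodes, each with the chain of a 68-cell or 194-cell clonotype as the second, and for TRBV14 and TRBV30 there were 0.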
